A study of Mus musculus with 40 samples.

Results

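Me1, Acly, Slc25a1, G6pdx, Pgd and Idh1 supply the citrate carbon and the NADPH from which the liver builds fat, and their messenger RNA was followed in fetal mouse liver under 4 maternal diets. The 6 genes were taken by symbol from a table of 20593 genes, and all 6 passed the filter on low values, as did 15377 genes in all. They were chosen by pathway and by measured values: the low normalized read counts of Me1 under the western diet in earlier results of these data. Western against control diet is therefore a description for the 6 genes, with no p-value, and the number of them past a threshold there is given only beside that of all genes. Folic acid dose, sex, the differences between effects and the co-variation of the genes within groups were tested.

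The libraries came from liver of C57BL/6 fetuses on gestational day 18.5, 1 library per fetus, whose dams were fed their diet from 13 weeks before mating and through gestation. Fat gave 10% of the calories of the control diet (CD) and 45% of those of the western diet (WD), which the submitters used as a model of gestational diabetes. The letter F marks 10 mg/kg folic acid in the diet (CDF, WDF) and its absence 2 mg/kg. All dams received folic acid, and none went without it. Male (M) and female (F) fetuses were sequenced from each diet, 5 per group, which gave the 8 groups CD, CDF, WD and WDF in males and in females. No label gives the mother of a fetus, and p-values thus cover differences between individual fetuses, which may include littermates.

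Of the 40 libraries, 38 entered the description. Replicate 4 of the CD females and replicate 5 of the CDF females were left out because Alb, the hepatocyte gene of serum albumin, was 7708 and 5278 there against 641900 to 1497000 elsewhere, while Sftpc, a surfactant gene of lung epithelium, reached 101200 and 67010. In these libraries Slc25a1 was 414 and 342, below its lowest liver value of 908, whereas Me1 was 675 and 497, inside its liver range. CD females and CDF females thus have n = 4 and every other group n = 5. Among the 38 libraries kept, Sftpc still ran up to 30180 in CD females replicate 5 and was 24800 in CDF females replicate 4. The former also had the highest summed heart markers of the 38, 16620. Values are the authors' normalized read counts, whose sum per library was 15000000 to 27820000 with a median of 17010000. They are given as mean ± SD, and log2 differences with their SE come from limma on log2(value + 1).

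Fat synthesis in the cytosol needs acetyl units and NADPH. Citrate leaves the mitochondrion through the carrier encoded by Slc25a1, and ATP citrate lyase, encoded by Acly, splits it into acetyl-CoA and oxaloacetate. Oxaloacetate is reduced to malate, from which the malic enzyme encoded by Me1 makes pyruvate and NADPH. The pentose phosphate pathway gives NADPH at glucose-6-phosphate dehydrogenase (G6pdx) and 6-phosphogluconate dehydrogenase (Pgd), and the cytosolic isocitrate dehydrogenase Idh1 gives it from isocitrate. In adult liver these genes are known to be switched on by feeding and insulin together with the fatty acid synthesis genes, and Me1 also responds to thyroid hormone and to the oxidative stress factor NRF2.

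The promoters of the genes that varied most closely together, Me1 with Acly and Slc25a1 with Pgd, are shown so that the values below can be read beside the letters of each start region. The sequences are from RefSeq on GRCm38.p6, matched by symbol for 6 of 6 genes, and run from 250 bases before to 50 bases after the RefSeq start nearest the GENCODE start. All lie on the minus strand and read 5′ to 3′. Capitals mark matches on either strand to the GC box GGGCGG, the CCAAT box CCAAT, the E-box CACGTG, the antioxidant response element core TGACNNNGC and the sterol element core CACCCCAC.
Me1: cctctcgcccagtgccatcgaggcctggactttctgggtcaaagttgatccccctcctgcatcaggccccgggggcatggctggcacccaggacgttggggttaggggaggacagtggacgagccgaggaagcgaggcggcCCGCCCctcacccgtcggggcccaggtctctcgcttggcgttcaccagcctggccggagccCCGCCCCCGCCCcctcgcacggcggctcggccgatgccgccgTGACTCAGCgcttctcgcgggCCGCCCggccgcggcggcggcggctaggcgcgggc
Acly: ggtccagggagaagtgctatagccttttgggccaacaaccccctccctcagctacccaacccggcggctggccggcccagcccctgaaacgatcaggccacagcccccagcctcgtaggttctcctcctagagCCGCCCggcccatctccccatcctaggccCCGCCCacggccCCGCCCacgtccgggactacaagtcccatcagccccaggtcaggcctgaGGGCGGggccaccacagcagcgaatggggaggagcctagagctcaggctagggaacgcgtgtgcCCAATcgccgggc
Slc25a1: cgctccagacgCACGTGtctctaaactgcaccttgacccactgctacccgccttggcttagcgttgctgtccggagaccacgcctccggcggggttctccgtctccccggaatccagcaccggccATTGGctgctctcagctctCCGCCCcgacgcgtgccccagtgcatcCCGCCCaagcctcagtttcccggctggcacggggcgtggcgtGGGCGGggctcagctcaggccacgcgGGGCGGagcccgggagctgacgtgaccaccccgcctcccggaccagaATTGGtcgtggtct
Pgd: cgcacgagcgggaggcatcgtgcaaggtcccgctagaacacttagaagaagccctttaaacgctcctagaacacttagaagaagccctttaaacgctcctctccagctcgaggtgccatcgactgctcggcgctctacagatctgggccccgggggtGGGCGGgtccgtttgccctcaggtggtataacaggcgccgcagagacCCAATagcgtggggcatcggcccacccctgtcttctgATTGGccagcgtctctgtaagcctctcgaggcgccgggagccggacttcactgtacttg
The Me1 window, chr9:86695865-86696164, held 4 GC boxes and TGACTCAGC, a match to the antioxidant response element core that begins at -6 from the start site. The Acly window, chr11:100527951-100528250, held 4 GC boxes and 1 CCAAT box. The Slc25a1 window, chr16:17928170-17928469, held 4 GC boxes, 2 CCAAT boxes and an E-box at -239. The Pgd window, chr4:149166656-149166955, held 1 GC box and 2 CCAAT boxes. Among 32851 promoters of the same length, 35.7% held a GC box, 37.4% a CCAAT box, 7.15% this E-box, 12.4% the antioxidant core and 2.87% the sterol core. The sterol core letters were in none of the 4 windows shown. Windows not shown held these letters too. The G6pdx window nearest its GENCODE start held the antioxidant core at -57. At a further Pgd start, 689 bases from the GENCODE start, the window held both the antioxidant and the sterol core. A further Idh1 start had the sterol core. Of the GC boxes in Me1, 2 adjoin each other. A match is a description of letters, not evidence of binding.

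Per length, Idh1 and Acly were the most abundant of the 6 messages and Me1 the least. On the scale of normalized read count per kb of merged exons, the means over 38 libraries were 1124 ± 221 for Idh1, 1076 ± 380 for Acly, 737 ± 177 for Slc25a1, 358 ± 73.4 for Pgd, 188 ± 30.7 for G6pdx and 139 ± 77.6 for Me1. After group means were removed, Me1 also varied most between fetuses, with a residual SD of 0.57 on the log2 scale. Acly followed with 0.44, Slc25a1 with 0.32, Idh1 with 0.29, Pgd with 0.28 and G6pdx with 0.24. G6pdx lies on chromosome X from 74409483 to 74429194 and Idh1 on chromosome 1 from 65158616 to 65186500, both in GRCm38 on the minus strand. The autosomal retrogene copy of G6pdx, G6pd2, was not used here, and how reads common to the copies were counted is not given in the sources used here.

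**Figure D1:**
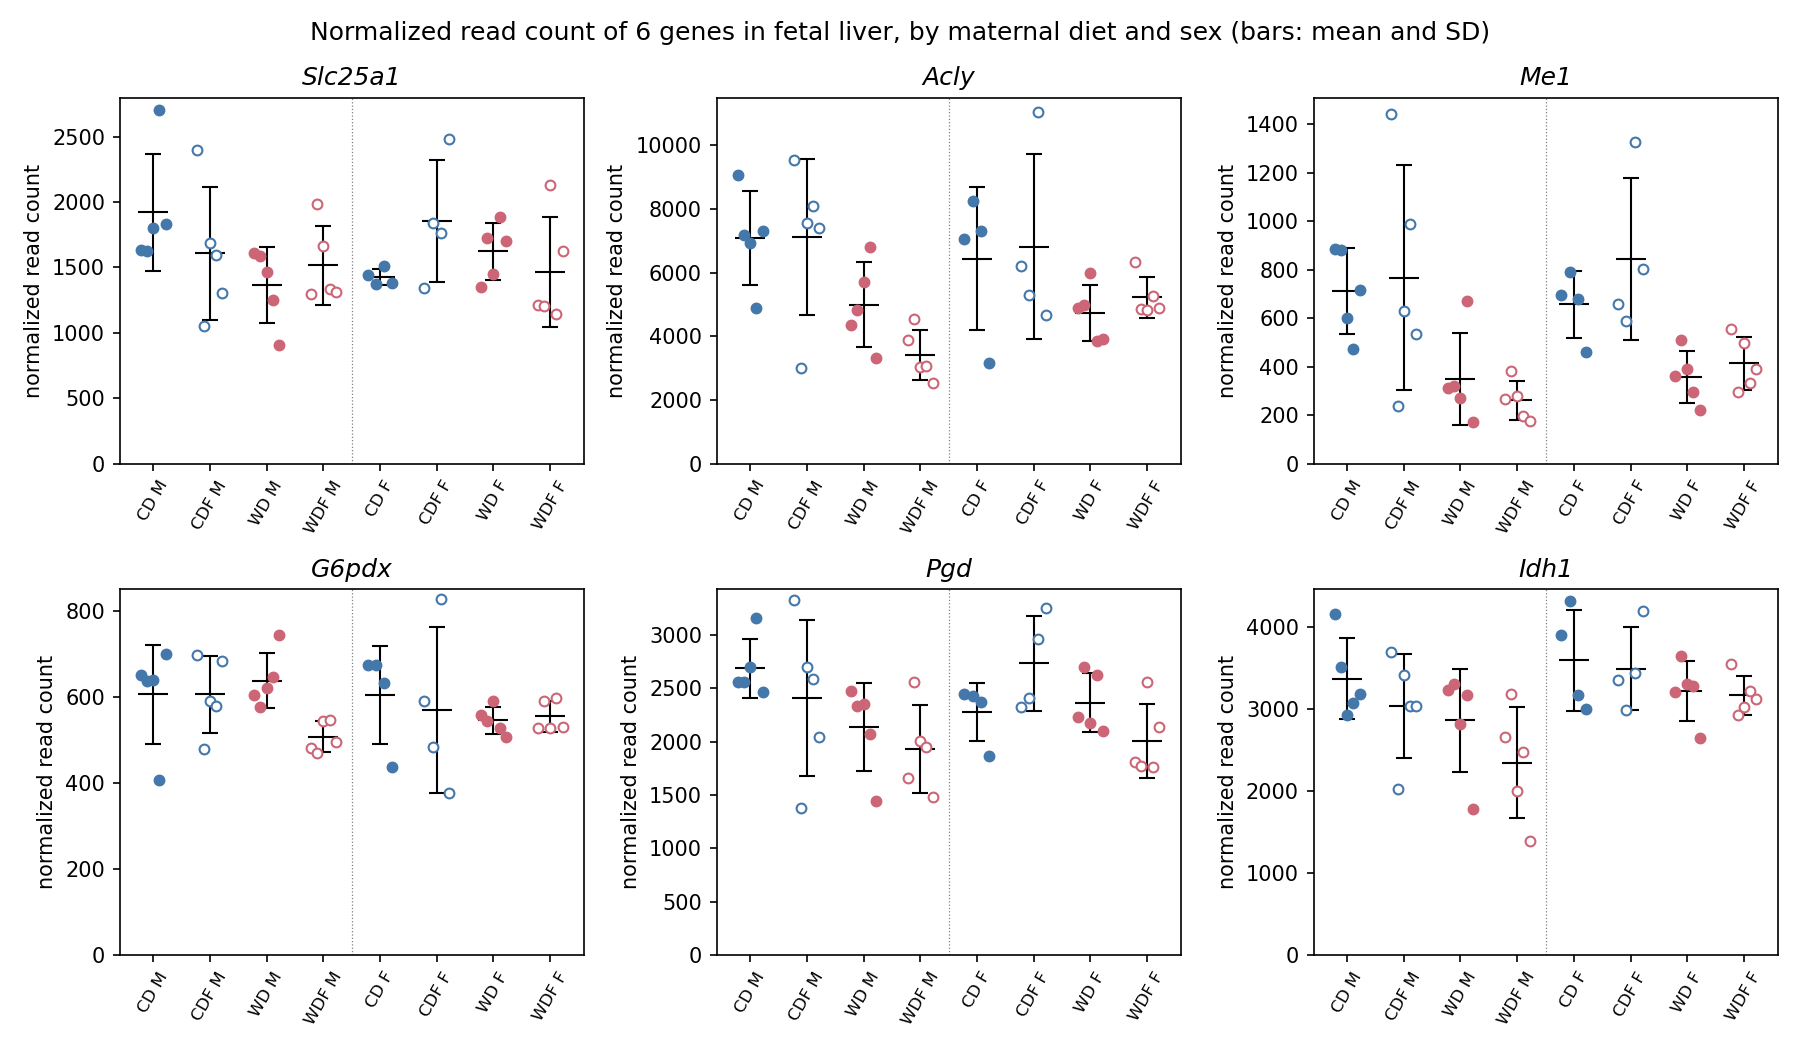
Normalized read count (vertical axes, linear, from 0) of the 6 genes in each of the 8 groups (horizontal axes). Points are libraries, filled at 2 mg/kg and open at 10 mg/kg folic acid, blue for control and red for western diet, and bars are mean and SD. Me1 has its 4 control diet means, 657 to 844, above its 4 western diet means, 260 to 414.

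Under the western diet Me1 was at 0.466 times and Acly at 0.684 times its control diet level on the fitted scale, and Pgd, Idh1, Slc25a1 and G6pdx lay closer to their control levels. Averaged over the 4 combinations of sex and folic acid dose, called strata below, all 6 log2 differences were below 0, as were 50.2% of all genes. With all 40 libraries 4 of the 6 were, Slc25a1 having 0.030 and G6pdx 0.015. Their median was -0.25, against 0.00 over all genes. At an adjusted p under 0.05, 1 of the 6, Me1, would be called, beside 0.0455% of all genes (7 of 15377). Without replicate 2 of the CDF males, 2 of the 6 and 53 genes in all would be called. Because this contrast chose the genes, nothing is read from these counts. In bulk RNA, fewer cells of a type and less RNA per cell cannot be told apart.

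The citrate carrier gene Slc25a1 did not have the same sign in every stratum. In CD males it was 1636, 1627, 1798, 2706 and 1835, and in WD males 1612, 1588, 1466, 1253 and 908. Every WD male lay below every CD male, which held for 0.676% of all genes, although the closest values, 1612 and 1627, nearly met. The log2 difference was -0.49 ± 0.20 in that stratum. It was -0.05 ± 0.20 in males at the higher folic acid dose, 0.18 ± 0.21 in females at the lower dose and -0.35 ± 0.21 in females at the higher dose. Without replicate 1 of the CDF males the second of these was 0.11, and with all 40 libraries the last was 0.13. Over the 4 strata it was -0.18 ± 0.10, with means of 1709 ± 434 (n = 18) under control and 1492 ± 306 (n = 20) under western diet.

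Acly, the citrate-cleaving enzyme, was 9062, 7191, 6938, 4900 and 7297 in CD males and 4362, 4819, 5701, 6799 and 3302 in WD males. In CDF males it was 9554, 3016, 7552, 8103 and 7417, and in WDF males 3872, 4530, 3042, 3072 and 2522. Apart from replicate 2 of the CDF males, whose 3016 fell among the western values, the males of dams fed 10 mg/kg folic acid separated by maternal fat. In females the values were 7045, 8244, 7309 and 3151 in CD, 4900, 4990, 5998, 3835 and 3921 in WD, 6202, 5311, 11060 and 4680 in CDF, and 6334, 4847, 4818, 5278 and 4877 in WDF. The female ranges overlapped at both doses, and the low CD female value belongs to replicate 5, which had the highest Sftpc of the 38 libraries. Log2 differences were -0.517 ± 0.264 and -0.996 ± 0.264 in males at 2 and 10 mg/kg and -0.37 ± 0.28 and -0.30 ± 0.28 in females. Single libraries moved the female values, to -0.69 at 2 mg/kg without CD females replicate 5 and to -0.04 at 10 mg/kg without CDF females replicate 3. The mean over strata was -0.55 ± 0.14, from 6890 ± 2093 (n = 18) to 4591 ± 1132 (n = 20), and 1.88% of all genes had a lower difference.

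Me1, the cytosolic malic enzyme, was 886, 879, 601, 473.5 and 718 in CD males and 312, 319, 269.5, 671.5 and 169.6 in WD males. All WD males except replicate 4 lay below every CD male. In CDF males it was 1444, 237, 627.5, 987.5 and 536, and in WDF males 266, 382, 279, 197 and 177. Replicate 2 of the CDF males, at 237, again lay inside the western range. CD females had 695.5, 790.4, 681 and 460.5 and WD females 361, 511, 389, 296.5 and 222.5, so 4 of 5 WD females were below all CD females. CDF females had 659.5, 589, 1328 and 801, and WDF females 555, 295, 496, 334 and 389. These last ranges did not overlap, which held in the same direction for 0.488% of all genes.

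The log2 difference of Me1 was -1.14 ± 0.34 and -1.37 ± 0.34 in males at 2 and 10 mg/kg and -0.91 ± 0.36 and -0.99 ± 0.36 in females. Over the strata it was -1.10 ± 0.18, with means of 744 ± 293 (n = 18) under control and 345 ± 131 (n = 20) under western diet. Only 41 of 15377 genes, 0.267%, had a lower difference. Ordered by mean, the groups ran CDF females 844, CDF males 766.5, CD males 711, CD females 657, WDF females 414, WD females 356, WD males 348 and WDF males 260. Neighbours in this order differed by more than their pooled SD at a single step, from CD females to WDF females, where the diets change. Because Me1 was chosen for its low western diet values, nothing is read from this step or from its place among all genes.

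For Acly the corresponding step beyond the pooled SD was from WD females at 4729 to WDF males at 3408, and for G6pdx it was from WD females at 546 to WDF males at 508. Slc25a1, Pgd and Idh1 had no neighbouring groups further apart than their spread.

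Among the pentose phosphate enzymes, G6pdx ranged over the groups from 508 ± 35.9 in WDF males to 639 ± 64.4 in WD males and had a mean difference of -0.07 ± 0.08 by fat. Its differences by stratum, -0.25 to 0.09, fell on both sides of 0, and the highest, in males at 2 mg/kg, was -0.05 without CD males replicate 4. Pgd had the lowest mean in WDF males, 1933 ± 413, and the highest in CDF females, 2737 ± 446. Its log2 differences were -0.35 ± 0.18, -0.28 ± 0.18, 0.06 ± 0.19 and -0.45 ± 0.19 in males at 2 and 10 mg/kg and females at 2 and 10 mg/kg, and -0.26 ± 0.09 over the strata. In WDF females 4 of 5 libraries lay below all CDF females, while WD and CD females overlapped widely. Idh1 had its lowest mean in WDF males, 2342 ± 678, and its highest in CD females, 3596 ± 618. It was below control in each stratum, by -0.13 to -0.40, with a mean of -0.24 ± 0.09, but with all 40 libraries the female differences were 0.12 and 0.19.

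**Figure D2:**
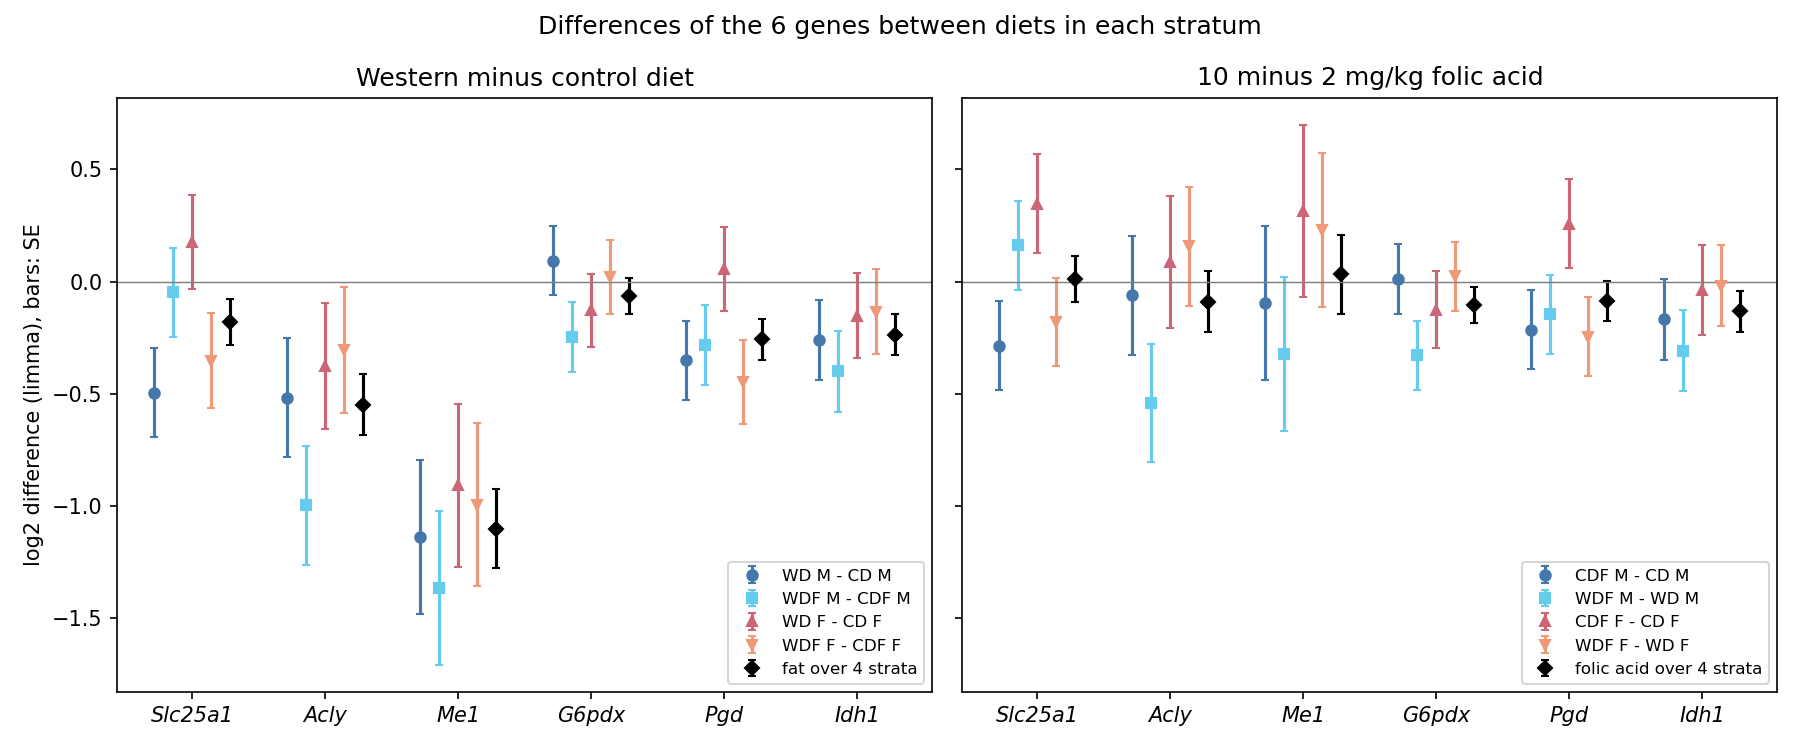
Log2 difference by limma with its SE (vertical axis, shared) for each gene (horizontal axis), for western minus control diet on the left and 10 minus 2 mg/kg folic acid on the right. Colours mark the 4 strata and black diamonds their mean. Me1 lies between -0.91 and -1.37 in every stratum on the left, and the folic acid means on the right lie between -0.13 and 0.03.

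Several marker lists of other cell types each lay mostly to a single side of 0 between the diets, with no marker past the adjusted threshold. All 12 of 12 erythroid markers were above 0 in the fat contrast (median log2 difference 0.21), as were 7 of 7 megakaryocyte markers (0.17), while 7 of 7 mesothelial (-0.59), 10 of 10 lung (-0.91) and 6 of 6 tested heart markers (-0.51) were below 0. So were 4 of 5 tested skeletal muscle markers (-0.69) and 3 of 4 tested gut and stomach markers (-0.34). The skeletal muscle marker of highest median level, Mylpf (79.4), was the exception at 0.22. Of the gut and stomach list, Cdx2 and Gkn2 were at 0 in 19 and 25 of the 38 libraries and did not pass the filter. Of 13 hepatocyte markers 7 were below 0, with a median of -0.01. The signs were not the same in every stratum. In WDF against CDF males 10 of 10 lung, 5 of 6 heart and 5 of 5 skeletal muscle markers were above 0, while 6 of 7 mesothelial markers were below. The median lung sum was 356 under control and 372 under western diet. High control sums of 41590 and 30160 belonged to CD females replicate 5 and CDF females replicate 4. Summed erythroid markers ranged from 931000 to 5367000 under control and from 701800 to 2911000 under western diet, and summed lung markers from 235 to 41590 and from 264 to 9057. Summed mesothelial markers ranged from 577 to 3542 and from 268 to 1519, summed heart markers from 60.1 to 16620 and from 72.1 to 4379, and summed hepatocyte markers from 2590000 to 3989000 and from 2710000 to 3715000. Summed megakaryocyte markers ranged from 2419 to 7857 and from 2905 to 8808, summed skeletal muscle markers from 68.1 to 1822 and from 81.5 to 670, and summed gut and stomach markers from 152 to 1962 and from 141 to 1306. No erythroid, megakaryocyte or mesothelial marker was at 0 in any of the 38 libraries, whereas the lung transcription factor Nkx2-1 was at 0 in 26 and the club cell gene Scgb1a1 in 23. Without the 2 remaining libraries of highest Sftpc, replicate 5 of the CD females and replicate 4 of the CDF females, the Me1 difference was -1.14 and that of Acly -0.66. The part of the other markers in the fat differences was not tested.

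Genes around the 6 in metabolism were read in the same fat contrast. Of 21 other fatty acid synthesis genes, 20 were below 0 with a median of -0.38, and 1, the acetyl-CoA synthetase Acss2, passed the adjusted threshold (-1.05 ± 0.20). Thrsp, a regulator of lipogenesis, had -2.06 ± 0.46, and the acetyl-CoA carboxylase Acacb -0.81 ± 0.23, without passing. By contrast, of 17 gene IDs for 16 other NADPH and pentose phosphate genes 6 were below 0, with a median of 0.02. The mitochondrial folate enzymes Aldh1l2 and Mthfd2 had -0.38 and 0.17. The mitochondrial transhydrogenase Nnt is listed under 2 IDs, which had 0.29 ± 0.18 and -0.02 ± 0.24, and is uncertain because how reads were split between them is not given in the sources used here. Of 14 genes that handle citrate, malate and pyruvate, 5 were below 0 and the median was 0.02, while the plasma membrane dicarboxylate carrier Slc13a3 had 0.26 and the cytosolic aconitase Aco1 had 0.11. None of these passed the threshold.

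Lists of the factors known to act on these genes were read in the same way. Of 18 lipogenic and related regulators, 14 were below 0 with a median of -0.07. The largest differences were those of Insig1, which holds SREBP back in the endoplasmic reticulum, at -0.44 ± 0.12, its escort Scap at -0.22 and the nuclear receptor Pparg at -0.16. Srebf1 and Mlxipl, which encode the lipogenic factors SREBP-1 and ChREBP and were looked up after the values were seen, had -0.10 ± 0.10 and 0.04 ± 0.14. Of 12 NRF2 target genes 5 were below 0 (median 0.04), with the cystine transporter Slc7a11 at -0.44 ± 0.22, the epoxide hydrolase Ephx1 at -0.31 and the glutathione transferase Gsta3 at -0.21. Slc7a11 was low, averaging 12.21 under control and 9.10 under western diet. Its differences were -0.97 in males and -1.16 in females at the lower folic acid dose, but 0.35 and 0.02 at the higher dose. Of 6 thyroid hormone responsive genes 3 were below 0, led by Thrsp and the corepressor Hr at -0.63 ± 0.18. Hr was also low, averaging 16.16 under control and 10.65 under western diet. None of these regulators, NRF2 targets or thyroid genes passed an adjusted p of 0.05. These lists were chosen with results known and are not independent evidence.

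Raising folic acid from 2 to 10 mg/kg was tested in each stratum. None of the 6 genes passed an adjusted p of 0.05 by limma in any stratum or over all 4, and neither did any other gene (0% of 15377). At an unadjusted p under 0.05 the share of all genes was 3.49% in control diet males, 7.78% in control diet females, 8.81% in western diet males, 1.44% in western diet females and 2.33% over the strata. Of the 6 genes, 2 fell under that p, G6pdx and Acly, both in western diet males. Over the strata the 6 differences lay between -0.13 and 0.03 on the log2 scale (adjusted p = 0.9999 by limma for each). Their 95% intervals reached from -0.37 for Acly to 0.39 for Me1, so changes within those bounds could not be resolved.

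In western diet males G6pdx was 605, 577, 620.5, 646.5 and 745 at 2 mg/kg and 482, 469.7, 544, 547 and 494 at 10 mg/kg. The ranges did not overlap, and 1.18% of all genes were separated in that direction. The log2 difference was -0.33 ± 0.15 (adjusted p = 0.556 by limma), lower in 5 of 5 libraries. Acly in the same groups differed by -0.54 ± 0.26 (adjusted p = 0.564 by limma), with 3 of 5 WDF males below all WD males. When libraries were weighted by their estimated quality, Acly passed (-0.71, adjusted p = 0.0409 by limma), the only 1 of the 6 to do so, among 621 genes. Idh1 differed by -0.31 ± 0.18 (adjusted p = 0.625 by limma) and Me1 by -0.32 ± 0.34 (0.772). The Me1 value rested on WD males replicate 4 and was -0.05 without it. Slc25a1 and Pgd had 0.16 ± 0.20 and -0.15 ± 0.18.

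In the same groups several marker lists of other cell types each lay mostly to a single side of 0, with no marker past the adjusted threshold. All 7 megakaryocyte, 10 lung, 6 tested heart and 5 tested skeletal muscle markers were above 0 in WDF against WD males (medians 0.56, 1.73, 0.75 and 0.71), and 10 of 12 erythroid markers were below 0 (-0.12). Summed megakaryocyte markers were 4948 to 6817 in WDF males and 3607 to 4602 in WD males, without overlap, and summed erythroid markers 1172000 to 1988000 and 701800 to 2399000. Summed lung markers were 332 to 9057 and 264 to 378, summed heart markers 90.1 to 421 and 86.5 to 115, and summed skeletal muscle markers 105 to 377 and 88.2 to 202. The 9057, 421 and 377 all belonged to WDF males replicate 2, and the remaining WDF males had lung sums of 332 to 468. Summed adipose markers, nearly all from Fabp4, were 1114 to 1666 and 641 to 1172. The part of these markers in the G6pdx and Acly differences was not tested. In the authors' deposited table for western diet males, which calls 203 of 13715 genes, the adjusted p was 0.111 for G6pdx and 0.188 for Acly. The authors' deposited table gives the other 4 genes adjusted p-values of 0.601 to 0.786. None of the 6 genes is called in any of the authors' 4 deposited tables, which call 7 genes in control diet males, 4 in control diet females and 0 in western diet females.

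Under the control diet folic acid differences were of both signs. Slc25a1 averaged 1920 ± 449 in CD and 1607 ± 509 in CDF males (-0.29 ± 0.20, adjusted p = 0.908 by limma), but 1426 ± 61.7 in CD and 1856 ± 468.5 in CDF females (0.35 ± 0.22, 0.509). CD females, at 1441, 1373, 1507 and 1382, were the tightest group for this gene, and 3 of 4 CDF females, at 1345, 1838, 1762 and 2479, lay above all of them. The 2479 belongs to replicate 4, which had the highest summed erythroid markers of the 38 libraries, 5367000, and a lung sum of 30160. Without it the female difference of Slc25a1 was 0.20, and with library weights 0.11. Pgd had the same pair of signs, with -0.21 ± 0.18 in males and 0.26 ± 0.20 in females, the latter 0.17 without that library and 0.078 with 36 libraries. Me1 had -0.10 ± 0.34 in males and 0.32 ± 0.38 in females, and Acly -0.06 ± 0.26 and 0.09 ± 0.30. Of the fatty acid synthesis genes 16 of 21 were below 0 over the strata (median -0.02) and of the other NADPH gene IDs 8 of 17, both of Nnt among them (median 0.00), none past the threshold. Mthfd1 and Aldh1l1, cytosolic folate enzymes that handle NADPH and were looked up after the values were seen, had 0.05 ± 0.07 and 0.08 ± 0.09.

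Whether fat and folic acid modified each other was tested as a difference of differences. No gene of 15377 passed an adjusted p of 0.05 by limma in either sex (0%), while 12.3% in males and 12.9% in females had an unadjusted p under 0.05, among them none of the 6. The largest values were those of Slc25a1, 0.45 ± 0.28 in males (adjusted p = 0.476 by limma) and -0.53 ± 0.30 in females (0.373), and of Pgd in females, -0.50 ± 0.26 (0.367). Acly and G6pdx had -0.48 ± 0.37 (0.549) and -0.34 ± 0.22 (0.484) in males. The 95% intervals of the 6 genes ran from -1.24 to 1.01 in males and from -1.13 to 0.96 in females.

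By sex, Idh1 was the gene with the smallest p. It averaged 3349 ± 436.5 in females (n = 18) and 2904 ± 680 in males (n = 20), a log2 difference of 0.25 ± 0.09 over the 4 diets (p = 0.0114, adjusted p = 0.999 by limma). No member was among the 9 genes past the threshold, which are 0.0585% of those tested, and 3.1% had an unadjusted p under 0.05. With all 40 libraries the Idh1 difference was 0.10. The X-linked G6pdx had -0.06 ± 0.08, and Me1 0.25 ± 0.18. The western minus control difference was higher in females than in males for 6 of 6 genes, while 49.8% of all genes were lower in females. For G6pdx the excess was only 0.02 ± 0.16. With 36 libraries, without the remaining ones of highest Sftpc, its female differences were -0.28 at the lower and -0.16 at the higher folic acid dose. Its male differences were 0.09 and -0.25, so 6 of 6 did not hold there. The folic acid difference was likewise higher in females for 6 of 6, while 51.5% of all genes were lower. Neither difference passed for any member (adjusted p = 0.9998 by limma for each), and 0% of all genes passed, with 1.18% and 1.07% at an unadjusted p under 0.05. The 2 tests share their libraries and are not independent.

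**Figure D3:**
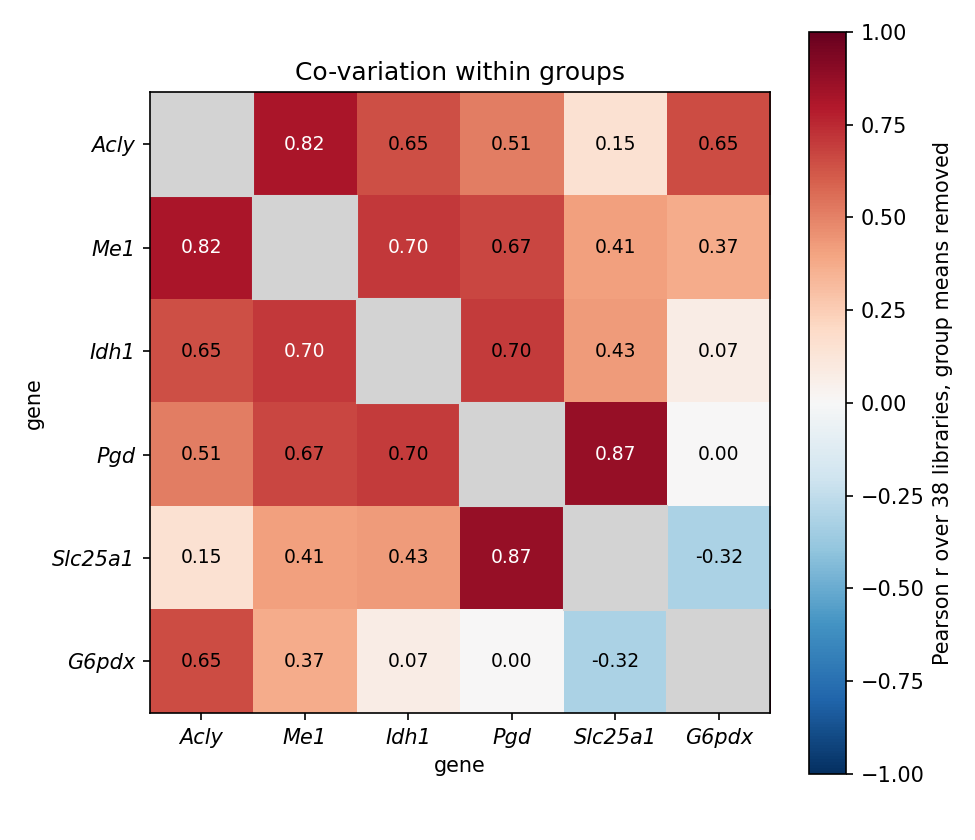
Pearson r between the 6 genes (both axes) over 38 libraries after group means were removed, with colour from -1 to 1. Acly with Me1 (0.82) and Slc25a1 with Pgd (0.87) are the darkest pairs, and G6pdx with Slc25a1 is the only pair well below 0 (-0.32).

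Between fetuses of the same group the 6 genes did not vary as a single block. Acly and Me1 varied together (r = 0.82, rho = 0.80), and so did Slc25a1 and Pgd (r = 0.87, rho = 0.85). Each had a permutation p of 1e-05, the smallest that 100000 permutations can give, and an adjusted p of 7.5e-05 over the 15 pairs. Without the 2 libraries farthest from the median, r was 0.78 for Acly and Me1 and 0.85 for Slc25a1 and Pgd. Slc25a1 and Acly, which act in sequence on citrate, had r = 0.15 and rho = -0.00 (adjusted permutation p = 0.52 and 0.988). G6pdx and Pgd, consecutive NADPH-forming enzymes of the pentose phosphate pathway, had r = 0.00 and rho = -0.15 (0.979 and 0.472).

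Idh1 sat between these pairs, with r = 0.70 to Me1 (rho = 0.64, adjusted permutation p = 0.0001, 0.63 without 2 libraries) and r = 0.70 to Pgd (rho = 0.53, 0.000637, 0.55 without 2). It also had r = 0.65 to Acly (rho = 0.59, adjusted permutation p = 0.00069, 0.57 without 2). Me1 with Pgd had r = 0.67 (rho = 0.51, adjusted permutation p = 0.00231, 0.49 without 2), and Acly with G6pdx r = 0.65 (rho = 0.47, 0.00231, 0.56 without 2). Acly with Pgd (r = 0.51) dropped to 0.29, and Me1 with G6pdx (r = 0.37) to 0.25, without the 2 farthest libraries, so these relations rest on those samples. Slc25a1 with Idh1 had r = 0.43 and rho = 0.26 (adjusted permutation p = 0.0309 and 0.206) and Slc25a1 with Me1 r = 0.41 and rho = 0.26 (0.0647 and 0.207). Slc25a1 with G6pdx had r = -0.32 and rho = -0.39 (adjusted permutation p = 0.103 and 0.0454), and r = 0.37 when the 2 lung-like libraries were included. Replicate 1 of the CDF males was the highest, and replicate 2 the lowest, of its group for all 6 genes.

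**Figure D4:**
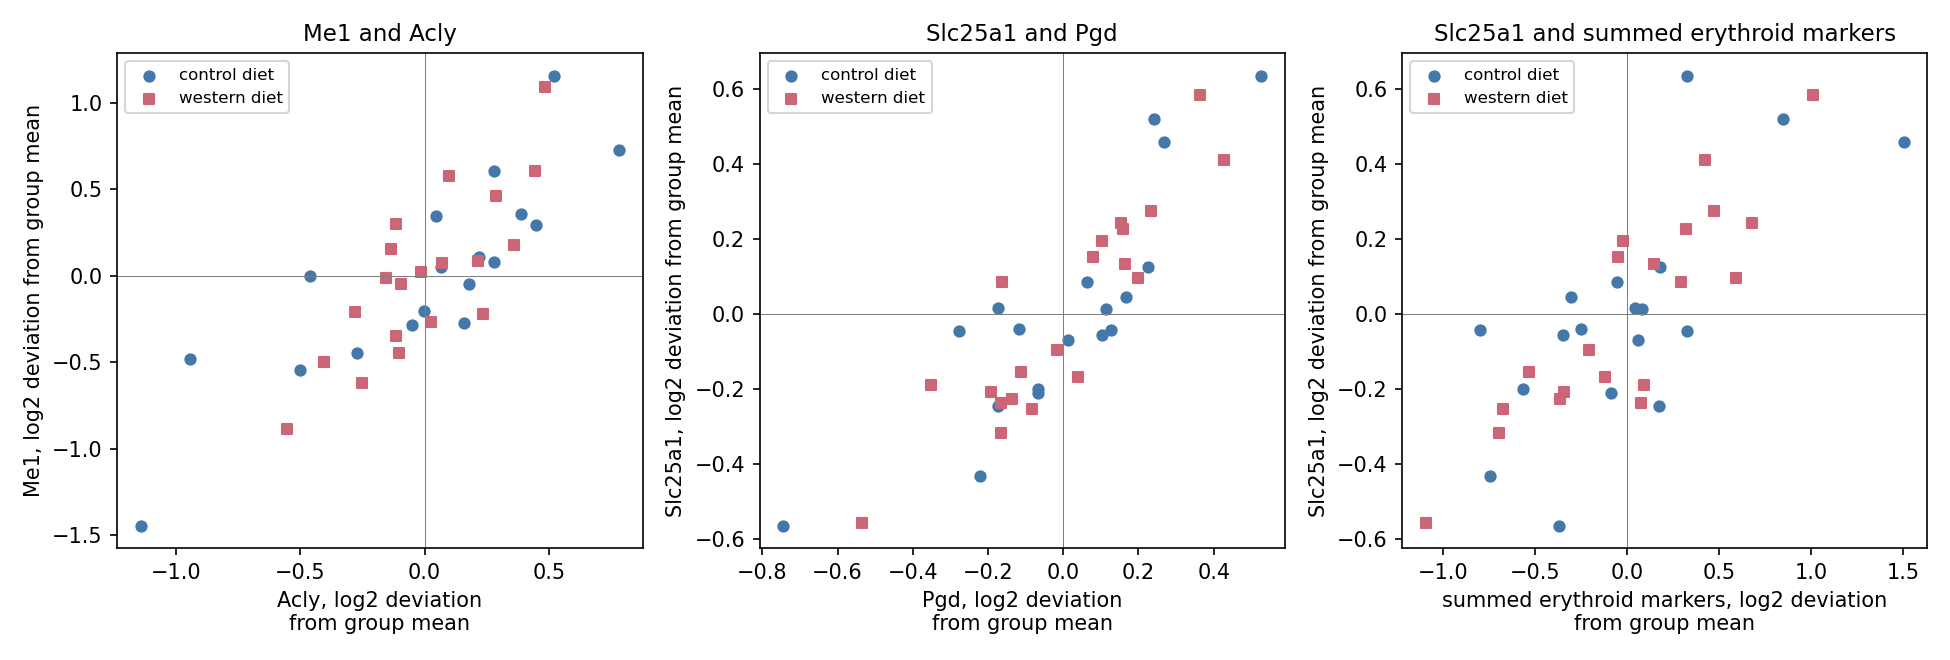
Deviation from the group mean on the log2 scale for Me1 against Acly, Slc25a1 against Pgd and Slc25a1 against summed erythroid markers, with blue circles for control and red squares for western diet libraries (n = 38). The r values, over the libraries of both diets together, are 0.82, 0.87 and 0.79. The erythroid sum came mostly from the globin messages Hbb-bs, Hba-a1 and Hbb-bt.

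The genes whose pattern within groups was most like each of the 6, out of 15376 others, differed by member. For Acly they were the fatty acid desaturase Fads2 (r = 0.93), Acss2 (0.90) and the stearoyl-CoA desaturase Scd1 (0.90), and for Me1 they were Scd1 (0.87), Acss2 (0.86) and Fads2 (0.83), all over 38 libraries. Of the 10 nearest genes, 6 for Me1 and 4 for Acly were on the fatty acid synthesis list, against 1 for Idh1 and 0 for Slc25a1, G6pdx and Pgd. Me1 ranked 10 among the genes nearest Acly, and Acly ranked 7 among those nearest Me1. For Slc25a1 the nearest were the very long chain enoyl reductase Tecr (0.94), the class I histocompatibility gene H2-Q10 (0.94) and the zinc transporter Slc39a5 (0.93). For Pgd they included Slc39a5 (0.90) and the phosphomevalonate kinase Pmvk (0.88), with Slc25a1 at rank 4. For G6pdx they were Tm7sf3 (0.81), 1810055G02Rik (0.81) and Nacc1 (0.80), and for Idh1 the aldehyde dehydrogenase Aldh1a7 (0.81), AU015836 (0.78) and Tlcd2 (0.74).

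Deviations of the 6 genes were also set beside the summed markers of 10 cell types, 60 relations in all, of which 10 had an adjusted permutation p of r under 0.05. The erythroid sum, of median 1406000, came mostly from globin messages, with medians of 737000 for Hbb-bs, 287500 for Hba-a1 and 276600 for Hbb-bt. Slc25a1 followed the erythroid sum (r = 0.79, rho = 0.77, adjusted permutation p = 0.0006 for both, 0.75 without 2 libraries), and Pgd did so less closely (r = 0.57, rho = 0.59, 0.0026 and 0.00828, 0.49 without 2). G6pdx went the other way (r = -0.62, rho = -0.54, adjusted permutation p = 0.0049 and 0.0138, -0.50 without 2). It did so too with the skeletal muscle sum (r = -0.61, rho = -0.54, adjusted permutation p = 0.0072 and 0.0138, -0.59 without 2). The same held for G6pdx with the adipose sum, which came nearly all from Fabp4 (r = -0.57, rho = -0.55, adjusted permutation p = 0.0303 and 0.0132, -0.55 without 2). With the heart sum it held by r alone (r = -0.53, rho = -0.37, adjusted permutation p = 0.022 and 0.127, -0.52 without 2). Slc25a1 and Pgd also followed the megakaryocyte sum (r = 0.66 and 0.54, rho = 0.60 and 0.56, adjusted permutation p = 0.0009 and 0.0036, 0.55 and 0.48 without 2). With the macrophage and neutrophil sum Pgd had r = 0.56 (rho = 0.61, adjusted permutation p = 0.0033 and 0.007, 0.50 without 2) and Slc25a1 r = 0.51 (rho = 0.40, 0.0239 and 0.127, 0.38 without 2). Me1 and Acly had r = 0.05 and -0.24 with the erythroid sum (rho = -0.07 and -0.28, adjusted permutation p = 0.847 and 0.403) and r = -0.08 and 0.03 with the hepatocyte sum (rho = 0.04 and 0.06, 0.817 and 0.891). With the lung sum Me1 had r = -0.07 (rho = -0.10, adjusted permutation p = 0.786). Whether these relations reflect the makeup of the samples was not tested.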

How the data were processed

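Directional libraries of polyadenylated RNA were sequenced from both ends for 43 nt, per the labels' protocols. The tools Trimmomatic 0.39, STAR 2.7.3a, Salmon 1.3.0 and DESeq2 1.24 and the build mm10 are listed without role or order, per the submitters' processing notes. The deposited values are a signal scale, normalized read counts from the authors: size factors estimated again by the median ratio came to 1.000 for each of 40 libraries. The values are not whole, so a count model planned for counts could not be used. The authors' 4 deposited tables of folic acid comparisons hold mean normalized counts (a signal), a log2 fold change and p-values; because most of their log2 fold changes are near 0, only their p-values are given. The column that lacks a sex letter was assigned to CDF females replicate 1 as the remaining title.

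Genes that reached a value of 10 in 5 or more libraries were fitted as log2(value + 1) with limma 3.58.1 in R 4.3.3, with a mean-variance trend and robust moderation, 1 mean per group over 38 libraries, and Benjamini-Hochberg adjustment over 15377 genes with a threshold of 0.05. This scale understates changes of low genes. The fit was tested on simulated data. Co-variation used deviations from group means and 100000 permutations within groups, two-sided (scipy 1.17.1). Gene IDs were matched to GENCODE M21 for 19987 of 20593 genes. The highest correlation between any 2 libraries was 0.982, so none was counted as a copy. Precision rests on the spread between libraries, since no counts were at hand.

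The members, gene lists and tests were chosen with earlier results of these data known, and the 60 relations to marker sums were added after values had been seen. Genes named beside the 6 members are, per member, the 3 with the highest r, and, per list, those past the threshold or else the 3 with the largest absolute fat difference; some genes named by this rule are not reported here. Alternatives tried were all 40 and 36 libraries, upper-quartile and recomputed median-ratio scaling, pseudocounts of 0.5 and 5, no filter and a filter at 50, library weights, a replicate block, a fit of the 2 compared groups alone and leaving out each library.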

Additional observations from a re-analysis of the deposited data

Results flagged for a closer look

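In 48 combinations of gene and group, 3 held a library set apart from the rest of its group by a gap of more than Dixon's 95% limit, a rule that chance meets in about 0.05 of groups. Slc25a1 was 2706 in CD males replicate 4, against 1627 to 1835 in the other 4 libraries. G6pdx was 406 in the same library, against 636.8 to 700.0 in the others. Pgd was 1867 in CD females replicate 5, against 2370 to 2446 in the other 3 libraries kept. That replicate had the highest Sftpc and the highest summed heart markers of the 38 libraries.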

How the results depend on the processing

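Of 2504 values under alternative settings for 102 results, 2403 kept their direction and their side of the threshold or stayed within 1.5 times the count, 86 changed sign, 19 of them western minus control differences, 8 counts and 1 further value moved, 4 passed the threshold only under the alternative and 2 no longer passed. The cause of these changes was not tested. The number of the 6 genes past the threshold for fat over the strata was 2 with 36 libraries and 2 with library weights, and 1 to 2 when 1 library was left out, with 2 without CDF males replicate 2 or CD females replicate 5. With library weights it was 1 for WD against CD males, 2 for WDF against CDF males and 1 for WDF against WD males, where Acly had -0.71 (adjusted p = 0.0409 by limma), and leaving out 1 library gave 0 to 2 for WDF against CDF males, the 2 without CDF males replicate 2. Over all genes, fat over the strata called 7 genes, against 3 with 40 and 11 with 36 libraries, 11 with a pseudocount of 5, 486 with library weights and 3 to 53 when 1 library was left out, the 53 without CDF males replicate 2. Where 0 genes were called, library weights called 145 for WD against CD males, 241 for WDF against CDF males, 621 for WDF against WD males and 397 for fat by folic acid in males, the 2 groups alone called 1 for WD against CD females, and leaving out 1 library called at most 8.

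Western minus control differences that turned with 40 libraries were Slc25a1 (0.13 against -0.35), Idh1 (0.19 against -0.13) and Acly (0.023 against -0.30) in WDF against CDF females, Idh1 (0.12 against -0.15) and G6pdx (0.020 against -0.13) in WD against CD females, and Slc25a1 (0.030) and G6pdx (0.015) over the strata. Slc25a1 in WD against CD females was 0.53 there against 0.18. With 36 libraries G6pdx in WDF against CDF females was -0.16 and Pgd in WD against CD females -0.037, and with library weights G6pdx was -0.19 in WDF against CDF females and -0.042 in WD against CD males. Leaving out 1 library gave -0.045 to 0.15 for G6pdx in WD against CD males, -0.16 to 0.22 for G6pdx in WDF against CDF females, -0.19 to 0.11 for Slc25a1 in WDF against CDF males and -0.037 to 0.097 for Pgd in WD against CD females.

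Other signs turned as well. With 40 libraries these were Acly in CDF against CD females (-0.056), folic acid over the strata for Slc25a1 (-0.020) and Me1 (-0.0064), and female against male for Slc25a1 (-0.20), Acly (-0.045) and Pgd (-0.041), and r between Slc25a1 and G6pdx was 0.37. With 36 libraries they were -0.074 for Acly in CDF against CD females, -0.030 for Slc25a1 and -0.0087 for Me1 by folic acid, and -0.029 for Slc25a1 and 0.024 for G6pdx by sex. With library weights they were -0.099 for G6pdx in CDF against CD males, -0.069 for Slc25a1 and -0.038 for Me1 by folic acid, and -0.037 for Slc25a1 by sex. Upper-quartile scaling gave -0.0036 for G6pdx in CDF against CD males. Leaving out 1 library gave, in CDF against CD males, -0.19 to 0.22 for Acly, -0.38 to 0.27 for Me1 and -0.13 to 0.093 for G6pdx. In CDF against CD females it gave -0.23 to 0.24 for Acly, -0.33 to 0.055 for G6pdx and -0.13 to 0.056 for Idh1, and in WDF against WD females -0.0042 to 0.052 for G6pdx and -0.088 to 0.029 for Idh1. Over the strata it gave -0.029 to 0.047 for Slc25a1 and -0.041 to 0.12 for Me1 by folic acid, and -0.033 to 0.045 for Slc25a1 by sex.

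Replicate numbers did not pair the libraries: the deviations of same-numbered libraries correlated at a median of 0.0062 over 126 pairs and those of other numbers at -0.0042. With the number as a replicate block, Slc25a1 by folic acid was -0.0027, fat over the strata called 7 genes, and no call of the 6 genes changed.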
